A study of Oreochromis niloticus with 12 samples.

Results

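Collagen I is the main fibre-forming protein of the connective tissue that wraps muscle fibres and bundles. Its chains are made and folded in the endoplasmic reticulum, where a dedicated chaperone holds the triple helix until it is secreted. Outside the cell the chains assemble into fibrils, and secreted proteins and small proteoglycans bind the fibrils and shape their width and spacing. In a piece of muscle this work is mostly done by fibroblasts between the fibres. The genes described here cover these roles in Nile tilapia (Oreochromis niloticus). They are col1a1b and col1a2 for the collagen I chains, serpinh1a for the chaperone, sparc for a collagen-binding secreted glycoprotein, and dcn (decorin) and aspn (asporin) for small leucine-rich proteoglycans.

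These 6 genes, of 42609 in the files, were found by their NCBI symbols, and dcn and aspn by the gene identifiers that carry these names. All 6 passed the filter on low counts that left 8425 genes. They were chosen because their values differed between domesticated and wild fish in these same libraries. Their differences are therefore described below, and no p-value of theirs is read as a test. In the O_niloticus_UMD_NMBU gene table, col1a1b spans 7556243 to 7574385 of linkage group 8 and col1a2 spans 24418936 to 24436475 of linkage group 22. The gene sparc lies on linkage group 2 (6181521 to 6195835), serpinh1a on linkage group 10 (3080901 to 3085032), dcn on linkage group 17 (13390993 to 13410890) and aspn on linkage group 5 (12521146 to 12531763). The 6 genes thus lie on 6 linkage groups.

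The samples were fast muscle of 6 domesticated females (D53, D63, D66, D68, D70 and D72) and 6 wild females (W53, W63, W66, W68, W70 and W72), all labelled 5 months old. A domesticated fish and the wild fish of the same number form a genetically related pair, and domestication had lasted 1 generation. Rearing and origin differ together between the groups and cannot be told apart. Ribosomal RNA was depleted, and directional libraries were sequenced in 1 lane.

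Counts assigned to genes ran between 4312367 and 8478988 per domesticated library and between 3395622 and 8472454 per wild library. Levels are given as CPM, counts relative to library totals scaled by TMM, a method that brings most genes to the same level. Fold changes are log2 CPM (pseudocount 0.5) of domesticated fish minus that of wild fish, which understates changes of genes with few counts. Levels were not compared between genes, because transcript lengths were not used here. The label of fast muscle was checked against 17 fast-fibre genes, of which mybpc2a was listed at 0 in every library. The annotation gives mybpc2a 2 transcripts, and reads shared between transcripts were not counted, so its 0 does not show that it was silent. The 17 genes were summed per library. Their summed level was 177400 to 428600 CPM in domesticated fish and 72330 to 413100 CPM in wild fish, with W66 and W70 (80650 CPM) lowest.

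The collagen I chain genes col1a1b and col1a2 were higher in domesticated muscle in all 6 pairs. Reads of col1a1b, which encodes a collagen I chain, reached 262, 885, 1396, 839, 419 and 956 CPM in D53, D63, D66, D68, D70 and D72, against 19.9, 244, 30.5, 480, 336 and 202 CPM in W53, W63, W66, W68, W70 and W72. W53 and W66 stood far below every other library, and the groups overlapped through D53 and D70, which lay within the range of the other 4 wild fish. The mean was 793 ± 406 CPM in domesticated fish and 219 ± 178 CPM in wild fish (SD, n = 6 each), a log2 fold change of 2.41 (SE 0.74). It was 1.26 (SE 0.44) without W53 and W66. These 2 libraries were left out after seeing the data. Where they are the lowest wild values, here and for genes below, leaving them out must lower the fold change. The SE given without them then understates the spread among wild fish. The 95% Poisson intervals, which cover counting error only, were 16.7 to 23.4 CPM in W53 and 26.1 to 35.5 CPM in W66, so counting error was small beside the gap to the next wild library.

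The gene col1a2, which encodes another collagen I chain, had 3715, 12380, 21600, 18930, 8754 and 13530 CPM in D53, D63, D66, D68, D70 and D72, against 204, 4186, 228, 6026, 6882 and 4028 CPM in W53, W63, W66, W68, W70 and W72. D53 was the only domesticated library within the wild range. The mean was 13150 ± 6540 CPM in domesticated fish and 3592 ± 2832 CPM in wild fish (SD, n = 6 each), a log2 fold change of 2.68 (SE 0.89). The highest wild value was 33.8 times the lowest. Without W53 and W66 the log2 fold change was 1.20 (SE 0.48), and the SD of log2 CPM among wild fish was 0.38, against 2.38 with all 6. Both are lower because the lowest wild values were taken out.

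**Figure D1:**
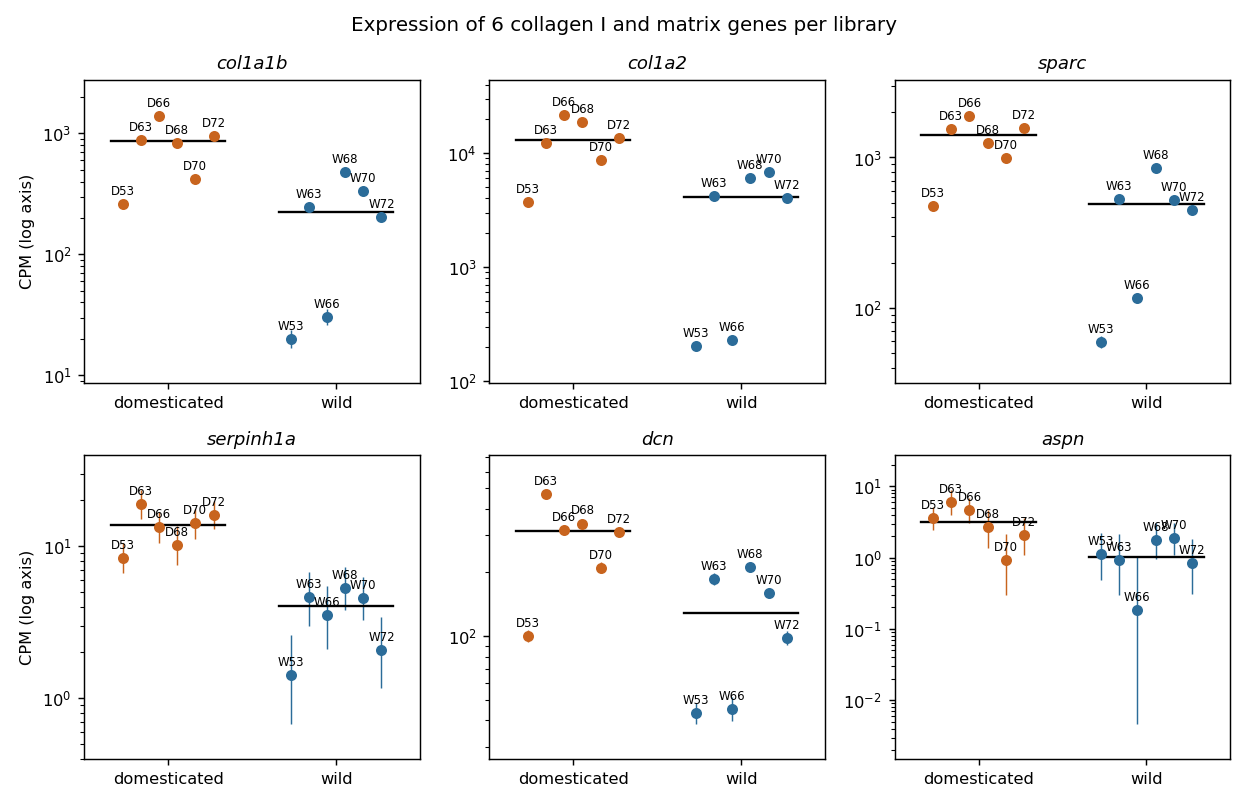
CPM (log axis) of the 6 genes in each library, with domesticated fish on the left and wild fish on the right of each panel. Points are libraries, thin vertical lines are 95% Poisson intervals and horizontal bars are group medians. W53 and W66 lie far below the other wild libraries for col1a1b, col1a2 and sparc. Of these 6 genes, which were chosen on this contrast, serpinh1a alone has groups that do not overlap. The share of all tested genes without overlap was not counted.

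The annotation gives col1a1b 2 transcripts and each of the other 5 genes 1 transcript. Reads that fit both transcripts of col1a1b could not be assigned to either, so its level understates the gene, and only the part told apart was counted. The first of its transcripts took 39.7 to 57.8% of the assigned reads in domesticated fish and 33.3 to 61.4% in wild fish. The share was 33.3% in W53 (95% Wilson interval 26.1 to 41.5%, 141 counts) and 61.4% in W66 (53.9 to 68.5%, 166 counts). The low level of col1a1b in these libraries was therefore seen for both transcripts. Its duplicate col1a1a, which has 3 transcripts in the annotation, had 0 counts in all 12 libraries. A count of 0 allows up to 3 counts per library, or 0.336 to 0.665 CPM in domesticated fish and 0.351 to 0.552 CPM in wild fish. Reads shared between transcripts or with a near-identical copy would not be counted, so a low or missing value of col1a1a does not show how strongly that gene was transcribed.

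The chaperone gene serpinh1a separated the groups without overlap. In mammals its protein binds procollagen in the endoplasmic reticulum. The gene had 8.40, 18.8, 13.3, 10.2, 14.1 and 16.03 CPM in D53, D63, D66, D68, D70 and D72, against 1.41, 4.59, 3.49, 5.31, 4.57 and 2.08 CPM in W53, W63, W66, W68, W70 and W72. The lowest domesticated fish, D53, lay above the highest wild fish, W68. The share of all tested genes without overlap was not counted, and serpinh1a was chosen on this contrast, so nothing is read from the separation. The mean was 13.5 ± 3.79 CPM in domesticated fish and 3.58 ± 1.55 CPM in wild fish (SD, n = 6 each), a log2 fold change of 1.98 (SE 0.34). It was 1.77 (SE 0.32) without W53 and W66. Each domesticated library held between 46 and 92 of its reads and each wild library between 10 and 39. Its duplicate serpinh1b averaged 5.95 ± 3.92 CPM in domesticated fish and 2.33 ± 1.56 CPM in wild fish (SD, n = 6 each). For serpinh1b the log2 fold change of 1.38 (SE 0.51) did not pass the limma test (adjusted p = 0.0825), and it passed without W63 (adjusted p = 0.0468). The annotation gives serpinh1b 3 transcripts. Reads they share were not counted, so these values cover only the part told apart.

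The secreted glycoprotein gene sparc, also known as osteonectin, followed the collagen genes. It had 476, 1553, 1887, 1252, 996 and 1570 CPM in D53, D63, D66, D68, D70 and D72, against 59.5, 528, 116, 856, 525 and 449 CPM in W53, W63, W66, W68, W70 and W72. Again W53 and W66 were lowest, and D53 alone lay within the wild range. The mean was 1289 ± 501 CPM in domesticated fish and 422 ± 295 CPM in wild fish (SD, n = 6 each). The log2 fold change was 1.98 (SE 0.58), and 1.1 (SE 0.38) without W53 and W66. Its relative sparcl1 had 51 counts over all 12 libraries and was not tested.

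Decorin binds the surface of collagen fibrils. Its gene dcn had 101, 468, 319, 341, 210 and 309 CPM in D53, D63, D66, D68, D70 and D72, against 43.1, 186, 45.2, 212, 160 and 97.9 CPM in W53, W63, W66, W68, W70 and W72. W53 and W66 were lowest once more, but by less than for the collagen genes, and D53 and D70 lay within the wild range. The mean was 291 ± 125 CPM in domesticated fish and 124 ± 72.7 CPM in wild fish (SD, n = 6 each). The log2 fold change was 1.35 (SE 0.46), and 0.79 (SE 0.39) without W53 and W66.

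Asporin is a close relative of decorin. Its gene aspn had 3.59, 6.06, 4.67, 2.66, 0.927 and 2.09 CPM in D53, D63, D66, D68, D70 and D72, against 1.13, 0.918, 0.184, 1.77, 1.87 and 0.834 CPM in W53, W63, W66, W68, W70 and W72. D70 was the one domesticated library that lay among the wild ones. The mean was 3.33 ± 1.85 CPM in domesticated fish and 1.12 ± 0.631 CPM in wild fish (SD, n = 6 each), a log2 fold change of 1.54 (SE 0.54). At 1 to 32 counts per library these levels are imprecise. W66 held 1 count, with a 95% Poisson interval of 0.00466 to 1.02 CPM, which reaches the levels of W63 and W72. Of the relatives of these proteoglycans, bgnb (biglycan) had 2 counts over all libraries. It has 2 transcripts in the annotation, and reads shared between them were not counted, so its level is not known.

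Of the 6 genes, 3 (col1a1b, sparc and serpinh1a) had an adjusted p under 0.05 in the limma fit across all 8425 genes, where 13.2% of all genes did. Genes higher in domesticated fish made up 6.69% and genes lower 6.5% of those tested. Nothing is read from the count of 3 or from the counts in other fits below, since the genes were chosen on this contrast. The share of all tested genes called in each of these fits is given in brackets. With the pair number as a block the count was 5 (12.6%), with col1a2 and dcn added. It was 1, serpinh1a, without W53 (10.9%) and likewise without W66 (7.72%), D63 (11.8%), D66 (10.9%), D68 (9.24%) or D72 (7.38%), and 5 without D53 (14.3%). Left out one at a time, W72 (11%) and D70 (6.97%) gave 2, W63 (15.4%) and W68 (9.53%) gave 4 and W70 (8.11%) gave 3. The gene serpinh1a was under the threshold in each of these fits, which for a gene chosen on this contrast is no test of its difference.

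**Figure D2:**
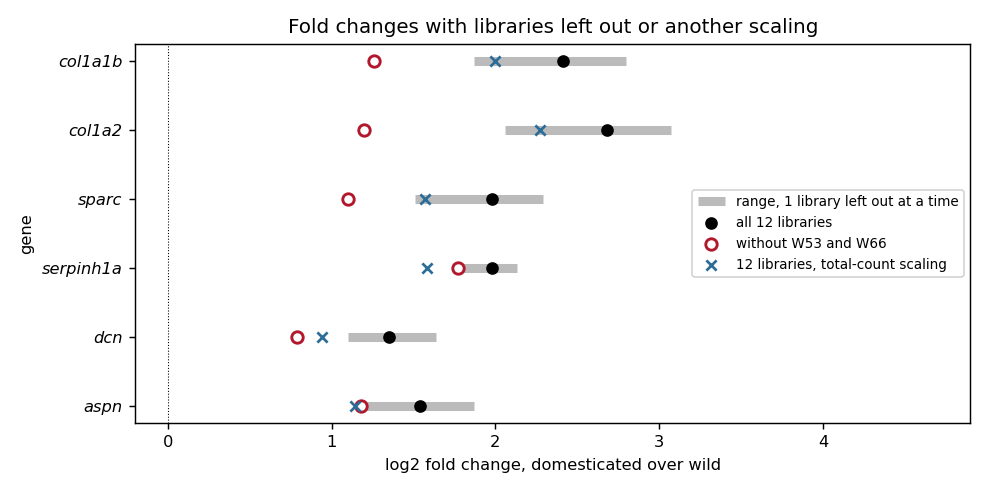
Log2 fold change of the 6 genes, domesticated over wild, in 4 settings. Filled points are fits of all 12 libraries, grey bars the range when 1 library at a time is left out, open points the fit without W53 and W66, and crosses the fit scaled by total counts. Every value is above 0, and col1a1b and col1a2 fall farthest without W53 and W66, to 1.26 and 1.20. W53 and W66 were left out after seeing the data and are the lowest wild libraries for both genes.

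The size of the difference varied between pairs. The median over the 6 genes of the log2 difference, domesticated minus wild, was 4.06 in pair 66 and 2.76 in pair 53, which hold the lowest wild libraries. It was 1.78 in pair 72, 1.71 in pair 63, 0.75 in pair 68 and 0.37 in pair 70. The domesticated fish was higher in 6 of 6 pairs for col1a1b, col1a2, sparc, serpinh1a and dcn, and in 5 of 6 pairs for aspn, where pair 70 had a log2 difference of -0.92. Both fish of pair 53 were the lowest of their groups for col1a1b, col1a2, sparc, serpinh1a and dcn. Pair 66 did not share this, since D66 was the highest library for col1a1b, col1a2 and sparc while W66 was the second lowest.

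The genes col1a1b, col1a2, sparc and dcn moved together from fish to fish. Over 12 libraries the Pearson correlations of their log2 CPM lay between 0.93 and 0.99, and those of the deviations from the own group mean between 0.89 and 0.99. Without W53 and W66 the correlations of the deviations lay between 0.80 and 0.95 over 10 libraries. These still held D53, whose log2 deviations were -1.4 for col1a1b, -1.62 for col1a2, -1.31 for sparc and -1.39 for dcn. Correlations without D53 as well were not computed, so how closely the remaining fish moved together was not tested. Correlations of serpinh1a with the other 5 genes were lower, at 0.13 to 0.75 within groups, and those of aspn at 0.13 to 0.52. All libraries shared 1 lane and 1 scaling, and these correlations are given as a description. The low counts of serpinh1a and aspn add counting error to theirs.

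**Figure D3:**
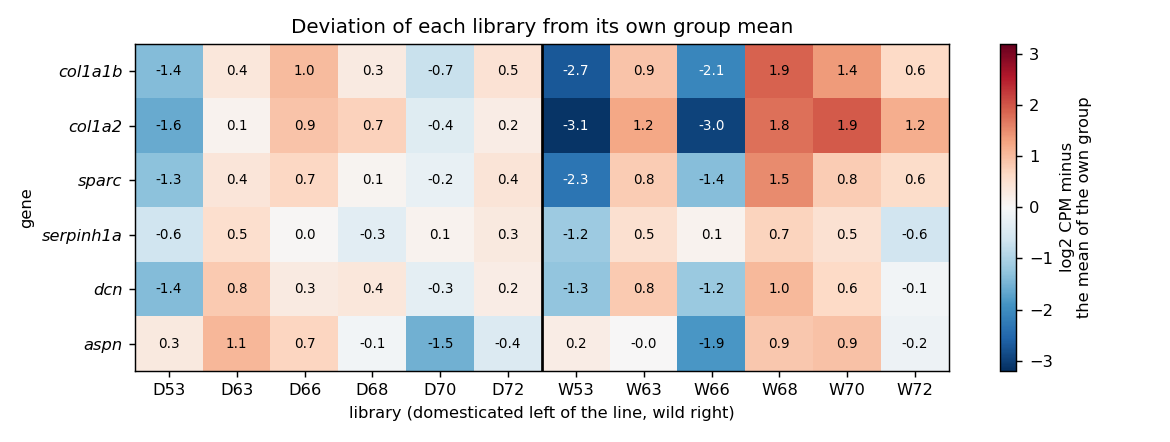
Log2 CPM of each gene in each library minus the mean of its own group, with domesticated libraries left of the line and wild libraries right. Blue is below and red above the group mean. The columns D53, W53 and W66 are blue for col1a1b, col1a2, sparc and dcn, while serpinh1a and aspn vary on their own in part.

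Although the 4 genes moved together, they did not keep a fixed ratio. The counts of col1a2 were 13.99 to 22.55 times those of col1a1b in domesticated fish and 7.46 to 20.5 times in wild fish, where W66 (7.46) and W53 (10.3) were lowest. Against dcn the split was wider. The ratio of col1a2 to dcn counts was 26.4 to 67.7 in domesticated fish, while in wild fish it was 4.73 in W53, 5.04 in W66 and 22.5 to 43.0 in the other 4. Counts of col1a2 were thus lower relative to those of dcn in W53 and W66 than in the other 10 libraries. The ratio to serpinh1a was 442 to 1855 in domesticated fish and 65.2 (W66) to 1933 (W72) in wild fish. As a ratio of counts of 2 genes, each value depends on their lengths and only its change between libraries can be read. The ratio to col1a1b also depends on the reads its transcripts share, which were not counted. Whether that uncounted part changed between libraries was not tested.

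Other genes of the matrix were examined through 9 lists of collagens, their processing enzymes, proteoglycans, glycoproteins, proteases, TGF-beta signalling and matrix receptors. Beside the 6 genes they held 270 genes of the annotation, of which 131 were tested. Reads shared between transcripts of a gene were not counted, so an untested gene with several transcripts need not be weakly expressed. Examples are hspg2 (13 transcripts) and lama2 (10 transcripts), both at 0 in every library. Some untested genes, such as col9a1a, have 1 transcript. The counts per list below cover tested genes only. In domesticated fish 4 of the 131 rose and 3 fell, or 5.34% against 13.2% of all tested genes. The fold change was above 0 for 77 of the 131, with a median of 0.26 against -0.02 over all tested genes. With scaling by total count it was above 0 for 58, with a median of -0.15 against -0.42 over all tested genes. The other 124 genes did not pass the test in either direction.

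**Figure D4:**
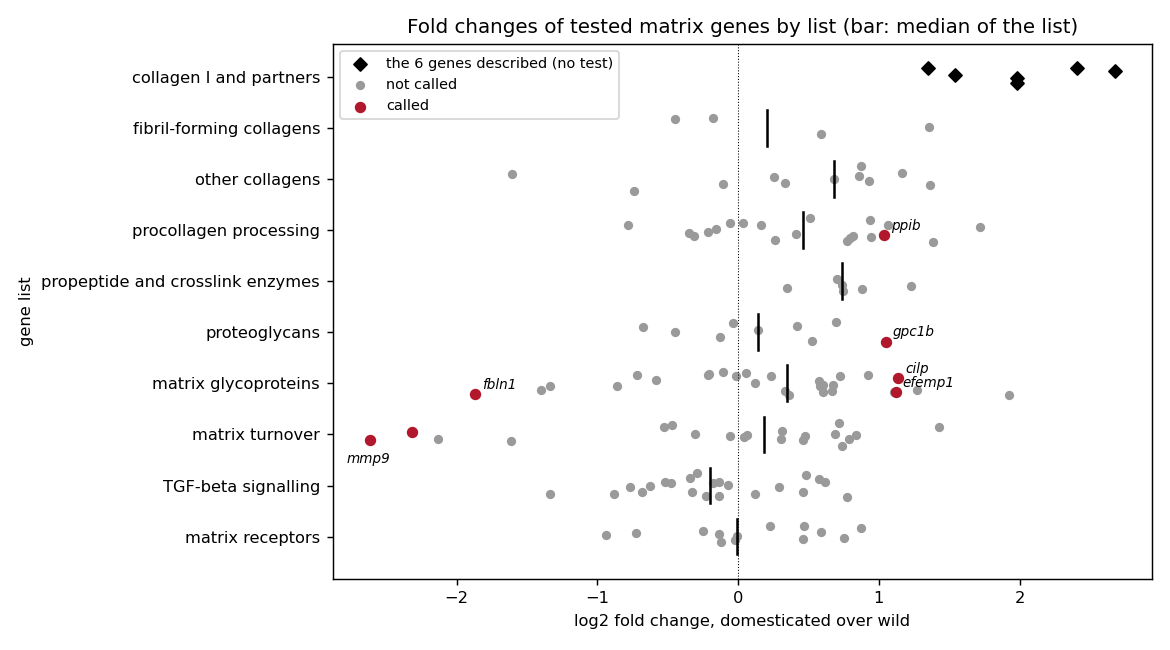
Log2 fold change, domesticated over wild, of each tested gene of the 9 matrix lists, with the 6 genes described in the top row as black diamonds. Red points passed the limma test at an adjusted p under 0.05, grey points did not, and bars are list medians. Of the 7 red points, the 6 with a name are ppib, gpc1b, cilp and efemp1 on the right and fbln1 and mmp9 on the left.

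Among collagens other than collagen I, 0 of 4 tested fibril-forming genes and 0 of 11 other collagen genes passed the limma test in either direction. At an unadjusted p under 0.05 there were 40 of the 131 genes of all lists. The share of all tested genes under that unadjusted threshold was not counted, so nothing is read from the 40. The fibril collagen gene col5a2a averaged 721 ± 332 CPM in domesticated fish and 321 ± 186 CPM in wild fish (SD, n = 6 each), with a log2 fold change of 1.36 (adjusted p = 0.0703). With the pair number as a block it passed (adjusted p = 0.0389). Another of the 4, col24a1, averaged 22.9 ± 8.54 CPM in domesticated fish and 14.9 ± 5.43 CPM in wild fish. For collagen VI, the beaded-filament collagen around cells, col6a2 averaged 713 ± 251 CPM in domesticated fish and 403 ± 317 CPM in wild fish, and col6a1 averaged 554 ± 183 CPM in domesticated fish and 367 ± 255 CPM in wild fish (SD, n = 6 each). Neither collagen VI gene passed the test.

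Of 20 tested genes of procollagen folding and transport 1 rose. It was ppib, which encodes cyclophilin B, a prolyl isomerase of the endoplasmic reticulum. It averaged 37.5 ± 8.17 CPM in domesticated fish and 20.1 ± 9.91 CPM in wild fish (SD, n = 6 each), with a log2 fold change of 1.04 (SE 0.32, adjusted p = 0.0441) and a higher value in the domesticated fish of 6 of 6 pairs. Its call was lost without W53 (adjusted p = 0.0808), W66 (0.0987), W72 (0.0733), D66 (0.0763), D68 (0.0757), D70 (0.0856) or D72 (0.0688). The folding enzyme genes pdia3 and p4hb did not pass. The level of pdia3 was 161 ± 40.4 CPM in domesticated fish and 165 ± 22.9 CPM in wild fish. The level of p4hb, which encodes a subunit of prolyl hydroxylase, was 87.9 ± 10.3 CPM in domesticated fish and 74.3 ± 14.3 CPM in wild fish. Of 6 tested genes of propeptide removal and crosslinking 0 passed, although the fold change was above 0 for all 6. That of loxl2a dropped just below 0 in one alternative setting (lowest value -0.06). They include loxl2b, a lysyl oxidase that links collagen chains, at 94.8 ± 26.3 CPM in domesticated fish and 69.5 ± 46.5 CPM in wild fish (SD, n = 6 each).

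Of 9 tested proteoglycan genes 1 rose. It was gpc1b, a glypican anchored at the cell surface, with 44.6 ± 12.4 CPM in domesticated fish and 21.7 ± 6.34 CPM in wild fish (SD, n = 6 each), a log2 fold change of 1.05 (SE 0.24, adjusted p = 0.0137). The annotation gives gpc1b 2 transcripts, and reads they share were not counted. The proteoglycan ogna (osteoglycin), a small leucine-rich relative of decorin, averaged 122 ± 48.7 CPM in domesticated fish and 82.3 ± 43.8 CPM in wild fish and did not pass (log2 fold change 0.69, adjusted p = 0.261). The large proteoglycan gene vcanb (versican) had the opposite sign and did not pass either, at 56.3 ± 13.4 CPM in domesticated fish and 79.4 ± 29.8 CPM in wild fish (SD, n = 6 each), a log2 fold change of -0.45 (adjusted p = 0.282). Of 28 matrix glycoprotein genes 2 rose and 1 fell. The gene cilp, for a secreted protein of cartilage matrix in mammals, averaged 50.5 ± 15.5 CPM in domesticated fish and 24.0 ± 11.1 CPM in wild fish (log2 fold change 1.14, SE 0.29, adjusted p = 0.0203). The fibulin gene efemp1 averaged 47.7 ± 8.88 CPM in domesticated fish and 23.7 ± 10.7 CPM in wild fish (log2 fold change 1.12, SE 0.29, adjusted p = 0.0223). For gpc1b, cilp and efemp1 the domesticated fish was higher in 6 of 6 pairs. Scaled by total count, these calls and that of ppib were lost. The glycoprotein genes dpt (dermatopontin) and fbn1 (fibrillin) did not pass. Dermatopontin reads averaged 459.5 ± 85.6 CPM in domesticated fish and 270 ± 133 CPM in wild fish, and dpt passed without W68 (adjusted p = 0.0465). Fibrillin reads of fbn1 averaged 333 ± 145 CPM in domesticated fish and 162 ± 102 CPM in wild fish (SD, n = 6 each).

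Another fibulin gene went the other way. The gene fbln1 averaged 1.08 ± 0.588 CPM in domesticated fish and 4.13 ± 2.50 CPM in wild fish (SD, n = 6 each), with a log2 fold change of -1.87 (SE 0.49, adjusted p = 0.0242) and a lower value in the domesticated fish of all 6 pairs. Its call was lost with the pair number as a block (adjusted p = 0.0554), without W66 (0.0624), without W68 (0.0562) and without the filter on low counts (0.0549). The annotation gives fbln1 2 transcripts. Reads they share were not counted, so its values cover only the part told apart.

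Of 20 tested genes of matrix turnover 2 fell. The one described here is mmp9, which encodes a gelatinase. Its level was 1.90 ± 1.25 CPM in domesticated fish and 16.1 ± 16.5 CPM in wild fish (SD, n = 6 each; log2 fold change -2.62, SE 0.65, adjusted p = 0.0189). The domesticated fish was higher in 1 of 6 pairs. W66, among the lowest wild libraries for col1a1b and col1a2 RNA, was the highest wild library for mmp9, at 39.9 CPM. W53 was not, with 5.92 CPM. W70, the highest wild library for col1a2, came close to W66 with 34.3 CPM of mmp9. Over 12 libraries, deviations of mmp9 from the group mean correlated at 0.08 with the mean profile of the 6 genes. With voom weights mmp9 no longer passed (adjusted p = 0.0514). Another gelatinase gene, mmp2, averaged 198 ± 61.8 CPM in domesticated fish and 136 ± 74.9 CPM in wild fish and did not pass.

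In TGF-beta signalling 0 of 22 tested genes passed, with a median log2 fold change of -0.20, and of the matrix receptors 0 of 13 passed, with a median of -0.01. W66 was also the highest wild library for thbs1a, which encodes a thrombospondin (654 CPM), and for itga5, an integrin subunit gene (284 CPM). The gene thbs1a passed without W72 (log2 fold change -1.81, adjusted p = 0.0402). It has 2 transcripts in the annotation, and reads they share were not counted. Without W53 and W66 none (0) of 137 tested matrix genes passed, with limma's trend or with voom weights. With either, 20 had an unadjusted p under 0.05. The share of all tested genes under that unadjusted threshold was not counted, so nothing is read from the 20. In the fit with limma's trend 5.71% of all 8881 tested genes passed the adjusted threshold.

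The genes whose fish-to-fish variation within groups was most like that of the 6 genes were sought among all other tested genes. Likeness was the Pearson correlation, over 12 libraries, of deviations from the group mean with the mean profile of the 6 genes. The 8 most alike were ogna (0.967), col6a1 (0.966), col6a2 (0.957), LOC100709531 (0.952), mfap2 (0.951), LOC109204141 (0.940), LOC100698923 (0.938) and creb3l1 (0.936). The protein of mfap2 is part of microfibrils, and in mice that of creb3l1 is a transcription factor of bone-forming cells. Without W53 and W66 these correlations were 0.81 to 0.95 over 10 libraries. Of the 50 genes most alike 13 stood on the matrix lists, and of the 100 most alike 19. Of all 8425 tested genes, 131 beside the 6 genes described stood on these lists. Only LOC100709531 of the 8 passed the test between groups, with 1076 ± 369 CPM in domesticated fish and 432 ± 235 CPM in wild fish (SD, n = 6 each), a log2 fold change of 1.51 (SE 0.44, adjusted p = 0.0344). Its call was lost without W66 (adjusted p = 0.0764), D63 (0.0537), D66 (0.0634), D68 (0.0579), D70 (0.0549) or D72 (0.0658), without W53 and W66 together (0.101) and when scaled by total count (0.0826).

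W53 and W66 were the 2 lowest of the wild fish for 4 of the 6 genes described, for 36 of the 131 tested matrix genes (27.5%) and for 777 of all 8425 tested genes (9.22%). The 2 libraries were singled out after seeing the values of the 6 genes, so the 4 of 6 is no test. Matrix genes such as ogna and col6a1 varied with the 6 genes, so nothing is read from the 36 either.

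Markers of cell types that a piece of muscle can hold were summed per library. Each marker named below at 0 has 2 or more transcripts in the annotation. Reads shared between transcripts were not counted, so a value of 0 does not show that a gene was silent. In bulk tissue, fewer cells of a type and less RNA per cell cannot be told apart. The 23 fibroblast genes, of which twist1b was at 0, summed to 609 to 992 CPM in domesticated fish and 215 to 794 CPM in wild fish, with W53 lowest at 215 CPM and W66 at 562 CPM, near the wild median of 554 CPM. The glycoprotein gene dpt made up 56.4% of the mean sum, so this sum is in large part that of a matrix gene. The fold change was above 0 for 12 of 13 tested fibroblast genes, with a median of 0.70. Of these 13 genes 3 rose and 0 fell, where 6.69% of all tested genes rose and 6.5% fell. The same shares stand beside the counts of the lists that follow. Blood cell genes summed to 2903 to 8018 CPM in domesticated fish and 1954 to 6550 CPM in wild fish, and 6 of the 23 (slc4a1a, hemgn, csf1ra, spi1a, spi1b and pax5) were at 0. The genes lcp1, tmod4 and ank1a made up 88.1% of the mean sum. The tropomodulin gene tmod4 is also expressed in muscle fibres, and its level was 1125 to 2235 CPM in domesticated fish and 486 to 3036 CPM in wild fish, with W70 (486 CPM) and W66 (489 CPM) lowest as for the fast-fibre genes. Of 12 tested blood cell genes 3 rose (alas2, rhag and ank1a, listed as red-cell genes), and 6 had a fold change above 0. The gene ank1a, like tmod4, was lowest in W70 (97.3 CPM) and W66 (148 CPM). Without ank1a and tmod4 the 6 red-cell genes summed to 69.3 to 207.3 CPM in domesticated fish. Their sum in wild fish was 86.6 to 211.5 CPM. The gene sptb was the largest part of this sum in every library, at 44.6 to 188 CPM in domesticated fish and 79.5 to 201 CPM in wild fish. Of the 3 tested among the 6 red-cell genes, 2 (alas2 and rhag) rose and 1 (sptb) had a fold change below 0. The level of rhag was 7.54 to 24.4 CPM in domesticated fish and 1.83 to 9.17 CPM in wild fish. The sum therefore mostly follows sptb. The 14 leukocyte genes other than lcp1 summed to 227 to 377 CPM in domesticated fish and 237 to 628 CPM in wild fish, and 5 of the 6 tested had a fold change below 0. Most of this sum was cd74a, at 190 to 321 CPM in domesticated fish and 194 to 563 CPM in wild fish. The list thus pools genes of opposite sign. This division of it was made after its values were seen. Genes of fat, bone and skin summed to 650 to 1186 CPM in domesticated fish and 301 to 713 CPM in wild fish, with W53 lowest, krt8 at 59.0% of the mean sum and the bone genes sp7 and bglap at 0, and 3 of 9 tested rose. Vessel genes summed to 213 to 503 CPM in domesticated fish and 206 to 337 CPM in wild fish, with kdr and acta2 at 0, and 1 of 10 tested fell. Slow-fibre genes summed to 87.7 to 464 CPM in domesticated fish and 37.9 to 127 CPM in wild fish, with tnnt1, myl13 and sox6 at 0. The gene mb (myoglobin) made up 77.8% of the mean sum, so this sum mostly follows mb. Of 4 tested slow-fibre genes 2 rose, and the fold change was above 0 for these 2 alone. This list too thus pools genes of opposite sign. Of 13 tested fast-fibre genes 0 passed the test, although the fold change was above 0 for all 13. Their median log2 fold change was 0.48, against -0.02 over all tested genes. The part of these cell types in the levels of the 6 genes was not tested.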

How the data were processed

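The authors' deposited files hold, per library, whole numbers of reads (another unit here, counts not normalized by the authors) for 80392 annotated transcripts and 5 summary lines. The submitters' notes name Trimmomatic 0.33, STAR, HTSeq and edgeR. Their other versions, settings and roles were not stated in the sources read. The 5 summary lines, among them reads outside features (11.2% on average), ambiguous reads (13.4%) and multiply aligned reads (51.5%), were left out.

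Transcript rows were added per gene (98.8% of counts lie in genes with 1 transcript). Genes with 10 scaled counts in at least 6 libraries and 15 in all were tested with limma 3.58.1 (R 4.3.3) on log2 CPM, with TMM-scaled totals, a pseudocount of 0.5, trend and robust estimation, condition alone, Benjamini-Hochberg adjustment over all 8425 genes and a threshold of 0.05. A count model had been planned, but the files could not be declared as counts in the unit check, so limma was used in its place. The scripts were tested on simulated data. Python 3.11.15, pandas 2.3.3, NumPy 2.4.6, SciPy 1.17.1 and matplotlib 3.10.9 were used.

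The members and gene lists were chosen with earlier results of these data known. Named are the members, their relatives, per list up to 3 called genes with the smallest p in each direction and the 2 uncalled genes of highest mean, and the 8 genes most like the members. Of the genes this rule names, 1 is not reported here. Of 428 symbols on the 9 matrix lists 270 matched the annotation.

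The labels pair the fish genetically by number. Deviations from the group means correlated between -0.10 and 0.21 in the pairs (mean 0.039, against -0.0067 for other combinations), and the own number was highest in 1 of 6. Each library is a separate fish. Alternatives were other scalings, filters, a pseudocount of 2, voom weights, the replicate block and each library left out. Leaving out W53 and W66 together was chosen after seeing the data. Intervals cover counting error only, as the reads carry no molecular identifiers.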

Additional observations from a re-analysis of the deposited data

Results flagged for a closer look

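Each group of 6 libraries was searched for a library set apart from the rest, by a gap to its nearest neighbour of over 0.625 of the group's range, in 32 genes and 64 groups. Chance flags about 5% of groups if values are normally distributed, which was not checked for CPM, and 6 were flagged. None of them was one of the 6 genes described. In domesticated fish the highest library stood apart for pdia3 (D53, 237 CPM), cilp (D63, 80.2 CPM), thbs1b (D68, 456 CPM) and thbs1a (D66, 139 CPM). In wild fish it did for ctsba (W70, 376 CPM) and itga5 (W66, 284 CPM).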

How the results depend on the processing

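The direction of the 6 genes and of the 7 called matrix genes was the same in every setting run. Of the named genes that were not called, pdia3, p4hb, loxl2a, thbs1b, lrp1ab and LOC109204141 changed sign in at least 1 setting. Scaling by total count moved the median log2 fold change of all genes to -0.42, against -0.02. It left 680 genes called, 87 higher and 593 lower in domesticated fish, against 1112 with 564 higher and 548 lower, and 4 matrix genes, none (0) higher. The calls of ppib (adjusted p = 0.305), gpc1b (0.19), cilp (0.17), efemp1 (0.225) and LOC100709531 (0.0826) were lost with it. It called 1 of the 6 genes and 8.07% of all tested genes. Without the filter 352 genes were lower, and 1 of the 6 was called, as were 2.49% of all tested genes. With a filter of 50 counts 3 matrix genes were called, none (0) lower. Voom weights called 2 of the 6 and 11.8% of all tested genes. Without W53 and W66, 507 genes (5.71% of those tested) were called, 265 higher and 242 lower, no matrix gene (0, so 0 higher and 0 lower) and 1 of the 6. With the replicate block 1062 genes (12.6% of those tested), 8 matrix genes and 5 of the 6 were called.

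With 1 library left out, calls ran between 628 and 1349 (321 to 730 higher, 307 to 643 lower). Matrix calls ran between 5 and 17 (3 to 14 higher, 2 to 5 lower), with 17 without D53 and 13 without W63. Calls among the 6 genes ran between 1 and 5, while 6.97 to 15.4% of all tested genes were called. As these 6 were chosen on this contrast, their calls describe the fits and test nothing. The quasi-likelihood count model was not run. Genes near 1 CPM, such as aspn and fbln1, are imprecise at these depths.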
